A study of Homo sapiens with 6 samples.

Results

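The interleukin-1 (IL-1) family was examined in T24 cells, an established human bladder cancer line, with and without knockdown of UBC9, the single E2 enzyme that conjugates SUMO to target proteins. The 8 members, IL1A, IL1B, IL33, IL18, IL36B, IL36G, IL1RN and IL36RN, were taken by gene symbol from the 58174 genes of each file, and all 8 were present. Polyadenylated RNA was sequenced from 6 samples. The 3 shRNA-NC samples carried a control shRNA, and the 3 shRNA-UBC9 samples carried an shRNA against UBC9. Per the study's methods, the cells were stably infected with a pLKO.1 lentivirus and selected with puromycin, and 1 hairpin sequence is given for UBC9, so effects of this hairpin on other targets cannot be told apart from those of losing UBC9. Whether the 3 samples of a group were separate cultures was not stated, and p-values measure only the spread between these samples.

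IL-1 family cytokines are small signalling proteins that start inflammation. IL-1α, IL-1β, IL-33, IL-18 and the IL-36 proteins are agonists, which bind a receptor pair that recruits MYD88 and IRAK kinases and activates NF-kB and MAP kinases. The IL-1 receptor antagonist (IL1RN) and the IL-36 receptor antagonist (IL36RN) occupy the same receptors without signalling. IL-1β and IL-18 are made as inactive precursors that caspase-1 cuts inside inflammasomes, whereas IL-1α and IL-33 can act as alarm signals when a damaged epithelial cell releases them. Transcript levels therefore do not measure released, active cytokine.

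Levels are in RPKM, mapped reads scaled by the length of the gene model and by the depth of the library. Read totals recovered from the RPKM steps were 28219032 to 36058872 per sample. Reads of haemoglobin, neutrophil, T-cell and muscle genes were present in 4 libraries (shRNA-NC 2 and 3, shRNA-UBC9 1 and 2), where 12 such genes summed to 7.48 to 8.9 RPKM, and were at 0 in shRNA-NC 1 and shRNA-UBC9 3. That split fell across both groups, and each member's values can be read on either side of it below. The libraries at 0 were also the shallowest, at 29847726 and 28219032 reads, against 33838697 to 36058872 in the other libraries. PTPRC, among these 12 genes, had 54, 50, 38 and 60 reads in shRNA-NC 2 and 3 and shRNA-UBC9 1 and 2. LYZ had 25, 32, 50 and 37 reads there, and both genes had 0 reads in the shallowest libraries. The part of depth in the split was not tested.

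The promoters of IL1A, IL1B and IL33 are shown because these are the members called higher in the knockdown. Each window runs from 250 bases before to 50 bases after an annotated RefSeq start on GRCh38.p14, is written 5′ to 3′ on the gene's own strand, and has matches in capitals. Both strands were searched for the letters GGGNNNNNCC of NF-kB, TGANTCA of AP-1, TATAAA of the core promoter box and GAAANNGAAA of the interferon-response element (ISRE). No capitals overlap between motifs in these windows.
IL1A, chr2:112784444-112784743, minus strand: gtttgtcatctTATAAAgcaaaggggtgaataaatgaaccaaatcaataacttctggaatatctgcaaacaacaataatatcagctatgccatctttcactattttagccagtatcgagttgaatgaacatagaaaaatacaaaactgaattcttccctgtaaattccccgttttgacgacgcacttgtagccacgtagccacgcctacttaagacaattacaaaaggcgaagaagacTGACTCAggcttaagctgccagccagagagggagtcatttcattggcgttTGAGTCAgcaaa
IL1B, chr2:112836730-112837029, minus strand: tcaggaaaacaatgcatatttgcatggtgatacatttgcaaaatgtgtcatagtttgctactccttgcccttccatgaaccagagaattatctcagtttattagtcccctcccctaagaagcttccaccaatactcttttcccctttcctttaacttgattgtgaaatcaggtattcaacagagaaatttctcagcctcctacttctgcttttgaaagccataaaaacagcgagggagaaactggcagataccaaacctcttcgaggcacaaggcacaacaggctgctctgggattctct
IL33, chr9:6215557-6215856, plus strand: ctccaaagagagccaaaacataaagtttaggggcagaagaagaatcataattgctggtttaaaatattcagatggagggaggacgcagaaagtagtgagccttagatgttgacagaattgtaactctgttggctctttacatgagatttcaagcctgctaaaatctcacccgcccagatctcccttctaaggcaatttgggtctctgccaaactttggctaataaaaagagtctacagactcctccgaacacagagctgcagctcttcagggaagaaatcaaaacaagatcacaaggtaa

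The IL1A window held 2 AP-1 matches, whose first bases lay at -12 and 38 from the start, and 1 core promoter box match at -239. These positions depend on the start chosen. From another annotated IL1A start, at 112784400, the same AP-1 matches lay at -105 and -55, with no core promoter box match in that window. The IL1B and IL33 windows held none of the 4 letter patterns, nor did the window of another IL33 start, at 6215149. Among 35114 RefSeq promoters of the same length, 7.71% held the AP-1 letters, 11.5% the core promoter box, 58.7% the NF-kB letters and 3.57% the ISRE letters. These matches describe letters in a short window and were not tested as binding sites, and longer-range elements lie outside it.

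The mRNA ends of the same genes differed as well. AU-rich elements in a 3′ UTR, built around UAUUUAU, are known to shorten the life of cytokine mRNAs. In the canonical GENCODE transcripts, overlapping matches to TATTTAT numbered 4 in the 610-base 3′ UTR of IL1B and 3 in the 1142-base 3′ UTR of IL1A. IL36G and IL36RN held 1 each, and IL33, IL18, IL1RN and IL36B held 0. The densest stretches are shown for the genes with most matches, as DNA letters with matches in capitals and positions counted from 1 after the stop codon.
IL1B, bases 338 to 367: gcttcccTATTTATTTATTTATttgtttgt
IL1A, bases 609 to 638: attatTATTTATatatgTATTTATaaatat

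Of 10843 tested genes with a 3′ UTR model, 36.4% held at least 1 match and 7.18% at least 3. Among genes called higher in the knockdown, 39.6% held at least 1. The 3 members called higher thus include both a gene with 4 matches and a gene, IL33, with none in 1815 bases.

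IL1B, the gene of IL-1β and a main driver of fever and neutrophil recruitment, was the most abundant member in both groups and rose. It was at 28.1, 32.4 and 22.2 RPKM in shRNA-NC and at 494, 513 and 402 RPKM in shRNA-UBC9. Every knockdown sample lay above every control, the lowest knockdown value being the one in replicate 3. Mean levels were 27.6 ± 5.11 and 469.7 ± 59.0 RPKM (SD, n = 3 each), a 17.0-fold ratio. On the log2(RPKM + 0.1) scale used for all tests, the fold change was 4.09 (SE 0.151, limma adjusted p = 6.93e-06), rank 47 among 12428 tested genes by rise.

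IL1A, the gene of IL-1α, which signals through the same receptor as IL-1β, rose with it. Its levels were 10.3, 14.0 and 7.39 RPKM in shRNA-NC and 124, 134 and 101 RPKM in shRNA-UBC9. The groups did not overlap, and the sample order was the order seen for IL1B, with replicate 2 highest and replicate 3 lowest in each group. Group means were 10.6 ± 3.33 and 119.5 ± 16.9 RPKM (SD, n = 3 each), an 11.3-fold ratio. The log2 fold change was 3.52 (SE 0.215, limma adjusted p = 2.81e-05), rank 72.

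IL33, the gene of the nuclear alarmin IL-33, went from near the limit of detection to a moderate level. It was at 0.103, 0.213 and 0.0727 RPKM in shRNA-NC, from 10, 24 and 8 reads, and at 7.05, 6.87 and 7.72 RPKM in shRNA-UBC9, from 827, 787 and 709 reads. The knockdown samples lay close together, and all were far above the controls. The ratio of mean RPKM was 55.7, and pooled reads scaled by depth gave a ratio of 54.6 with an exact 95% interval of 40.3 to 76.0, which covers counting error only. The log2 fold change was 5.04 (SE 0.221, limma adjusted p = 1.26e-05), rank 24. Its size depended on the pseudocount, being 2.86 with 1 and 5.82 with 0.01, while its call did not. IL33 passed the filter on low values only through the knockdown group, so that its presence among the tested genes is not separate evidence.

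IL18, the gene of the interferon-γ-inducing cytokine IL-18, did not pass the test and pointed the other way. Its levels were 16.9, 20.8 and 18.5 RPKM in shRNA-NC and 17.2, 13.8 and 12.8 RPKM in shRNA-UBC9. The first knockdown sample lay within the control range and the other two below it, so the groups overlapped. The log2 fold change was -0.37 (SE 0.13, limma adjusted p = 0.0564). The adjusted p was 0.0114 without shRNA-UBC9 replicate 1 and 0.0357 after median scaling, but the log2 difference was at most 0.49 in size in any fit, below the threshold of 1.

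**Figure D1:**
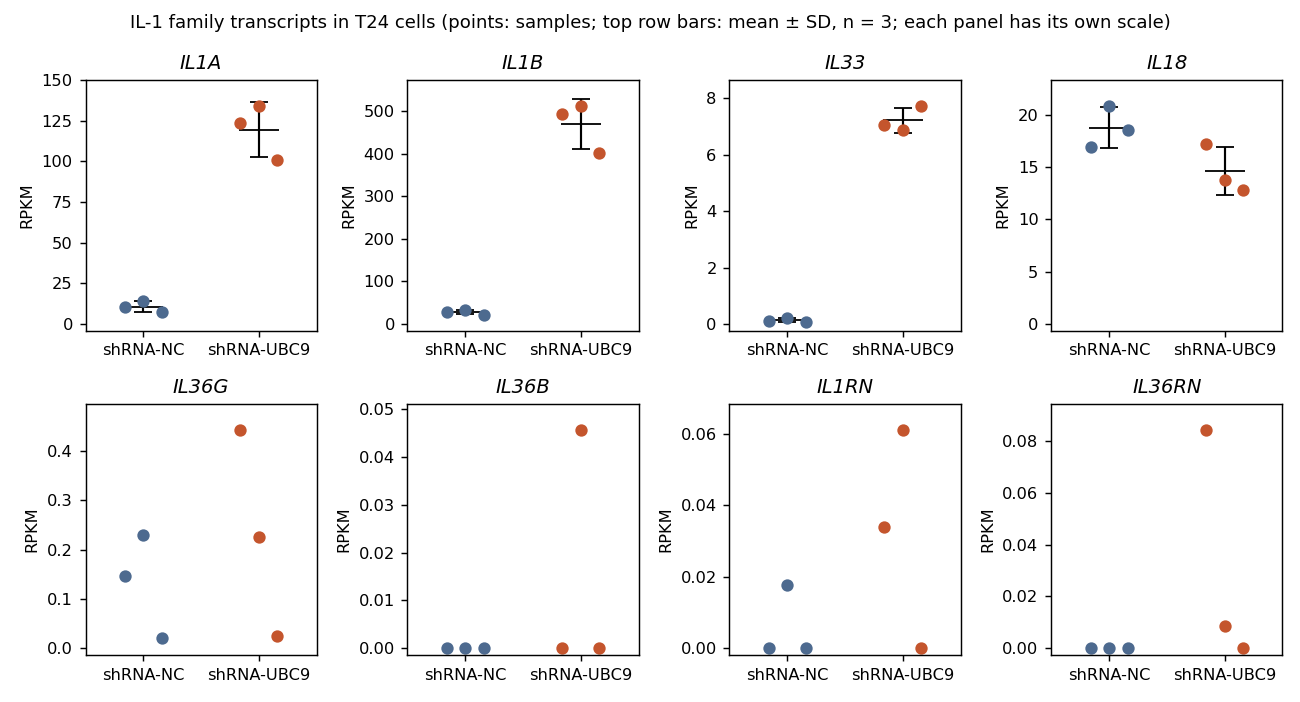
Level of each of the 8 members in RPKM (vertical axis, its own linear scale in each panel) in the 3 shRNA-NC and the 3 shRNA-UBC9 samples. Points are samples, and in the top row the bars are mean ± SD. IL1A, IL1B and IL33 do not overlap between groups, IL18 does, and the bottom row, with no bars, shows 4 members that stayed below 0.5 RPKM in every sample.

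A gene was called when the log2 fold change was above 1 in size and the adjusted p below 0.05. Of the 8 members, 4 had at least 0.5 RPKM in at least 3 samples and were tested, 3 of these were called higher and 0 lower. Over all 12428 tested genes, 7.89% were called, 5.2% as higher and 2.7% as lower. Every knockdown sample lay above every control sample in 25.7% of tested genes, and below in 25.4%, so lack of overlap by itself was common. The members' median log2 fold change was 3.81, against 0.00482 over all tested genes, but 1 of the 4 entered the test only through its high group.

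The other 4 members were below the filter in both groups and are given sample by sample. IL36G, an IL-36 agonist of epithelial cells, was at 0.146, 0.23 and 0.0214 RPKM in shRNA-NC and 0.442, 0.226 and 0.0257 RPKM in shRNA-UBC9, from 6, 11 and 1 against 22, 11 and 1 reads. The groups overlapped almost fully (exact two-sided permutation p = 0.5 on mean RPKM, where 0.1 is the smallest that 3 against 3 samples allow). Leaving out shRNA-UBC9 replicate 1 brought the difference of means to -0.00646 RPKM, so no direction was held. IL36B, another IL-36 agonist, was at 0 RPKM in 5 samples and at 0.0456 RPKM in shRNA-UBC9 replicate 2. That value equals 3 reads if the gene model is 1869 bases long, a length near the GENCODE one that a single value could not fix, so the read count depends on it.

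The antagonists were likewise close to 0. IL1RN had 0, 2 and 0 reads in shRNA-NC and 4, 7 and 0 in shRNA-UBC9, with a highest level of 0.061 RPKM. The depth-scaled read ratio of 5.43 had an exact 95% interval of 1.19 to 50.5, but the samples overlapped (exact permutation p = 0.4, two-sided). IL36RN had 0 reads in each shRNA-NC sample and 10, 1 and 0 in shRNA-UBC9, an at least 3.62-fold higher level when the control group is put at a floor of 3 reads in all (exact permutation p = 0.4, two-sided). That bound rests on shRNA-UBC9 replicate 1, without which 1 read remained and the difference of means was 0.0043 RPKM. With 3 reads as the limit that a count of 0 allows, IL1RN could have been as high as 0.0327 RPKM in the shallowest library without being seen. Reads of IL1RN, IL36RN and IL36B occurred only in libraries that held the blood and muscle transcripts, which were also the deeper libraries. The part of those transcripts in these reads was not tested.

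RPKM is scaled by gene length, so members can be set beside each other, with the limit that the gene models used were whole-exon lengths such as 3096 bases for IL1B and 2124 for IL1A. In shRNA-NC the order of mean RPKM was IL1B, IL18, IL1A, IL36G, IL33, IL1RN, with IL36B and IL36RN at 0. IL1B, IL18 and IL1A did not overlap between neighbours, although the lowest IL1B value, 22.2 RPKM, was near the highest IL18 value, 20.8 RPKM. IL36G and IL33 were at 0.132 and 0.13 RPKM and could not be ordered. In shRNA-UBC9 the order became IL1B, IL1A, IL18, IL33, IL36G, and then IL1RN, IL36RN and IL36B near 0. Here neighbours down to IL36G did not overlap between neighbours, whereas IL36G and IL1RN did.

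The summed RPKM of the 8 members was 55.6, 67.7 and 48.2 in shRNA-NC and 642, 668 and 524 in shRNA-UBC9. IL1B made up 48.2% ± 2.21 of that sum in controls and 76.8% ± 0.0603 in the knockdown (SD, n = 3 each). IL18 went from 33.2% ± 4.47 to 2.39% ± 0.31, whereas IL1A held 18.2% ± 2.71 and 19.5% ± 0.474. IL33 took 0.217% and 1.2%. Shares of one sum are tied to each other, and the IL18 share fell with the larger total, its own level being as given above.

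**Figure D2:**
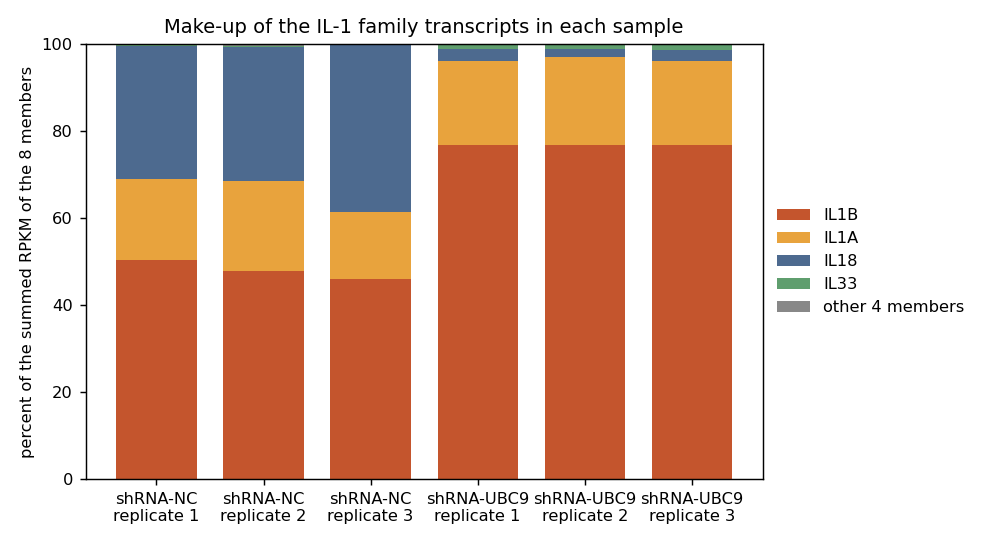
Percent of the summed RPKM of the 8 members (vertical axis) held by each member in each of the 6 samples (horizontal axis). IL18 holds 30.5% to 38.3% of the column in shRNA-NC and 2.06% to 2.68% in shRNA-UBC9, while IL1B is the largest part throughout.

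IL1B and IL1A were set against each other. The ratio of IL1B to IL1A in RPKM was 2.72, 2.31 and 3.01 in shRNA-NC and 4.0, 3.83 and 3.99 in shRNA-UBC9. All knockdown ratios were above all control ratios (exact two-sided permutation p = 0.1, the smallest possible, so the design could not pass a threshold of 0.05). The ratio of IL1B to IL18 was 1.47 ± 0.239 in controls and 32.5 ± 4.35 in the knockdown (SD, n = 3 each, exact permutation p = 0.1). Set against both agonists, IL1RN was at 0, 0.382 and 0 RPKM per 1000 RPKM of IL1A plus IL1B in shRNA-NC and at 0.0552, 0.0943 and 0 in shRNA-UBC9. These ratios overlapped (exact permutation p = 1.0), and leaving out single samples moved their difference between -0.141 and 0.0498, the latter without shRNA-NC replicate 2.

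A total of 6 members lie in the IL-1 cluster of chromosome 2, so the neighbouring genes were compared. On GRCh38.p14 the cluster spans 360.1 kb from IL1A (chr2:112773925-112784493) to IL1RN (chr2:113099360-113134014). It holds 9 family genes, of which 6 are members. Only IL1A and IL1B (chr2:112829751-112836779), the pair at one end, were called, and the other 7 were below the filter. IL36A and IL1F10 had 0 reads in all samples. IL37, an anti-inflammatory family gene that is no member here and was singled out after its values were seen, had 2, 2 and 2 reads in shRNA-NC and 8, 10 and 3 in shRNA-UBC9.

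Genes outside the cluster on both sides were not called. Of 8 flanking genes, 7 were tested and 0 were called, with a median log2 fold change of -0.0514. Over all tested genes 7.89% were called, so 0 calls among 7 genes is a common outcome. CKAP2L, a mitotic spindle gene next to IL1A, was at 18.1, 21.9 and 19.1 RPKM in shRNA-NC and 12.0, 12.7 and 13.7 RPKM in shRNA-UBC9. It moved opposite to its neighbour, with a log2 fold change of -0.62 (SE 0.101, limma adjusted p = 0.00259), below the fold threshold. Log2 fold changes were -0.32 for SLC20A1 (limma adjusted p = 0.16) and -0.05 for PAX8 (limma adjusted p = 0.756), the flanking genes with the highest levels. IL33 lies apart on chromosome 9 (chr9:6215149-6257983), and IL18 on chromosome 11 (chr11:112143260-112164094).

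**Figure D3:**
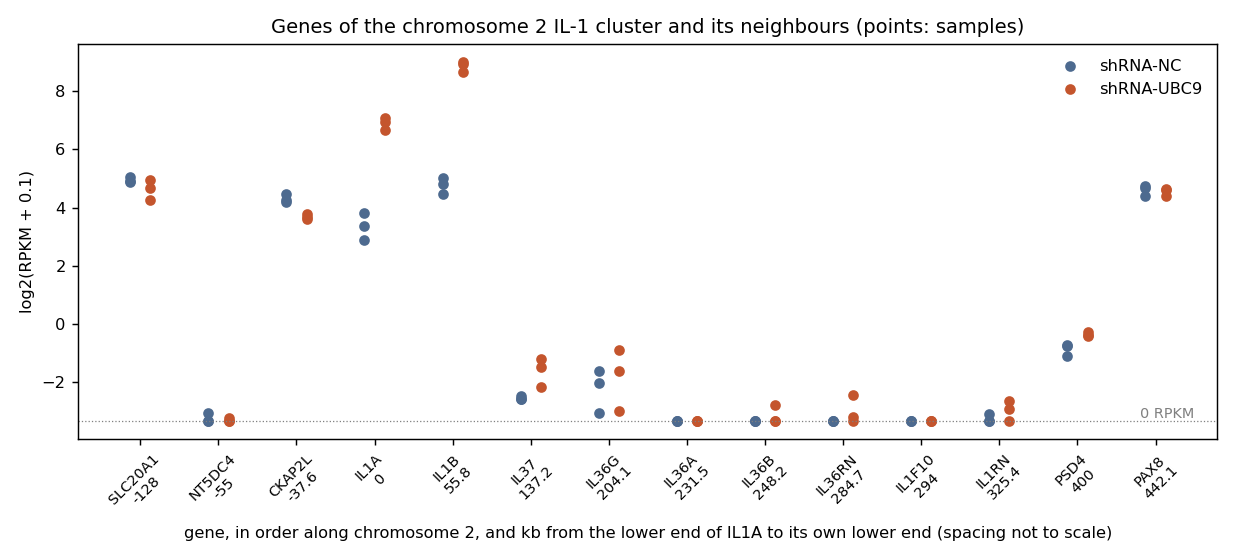
Level of each gene on a log2(RPKM + 0.1) scale (vertical axis) in order along chromosome 2, with the distance in kb from the lower end of IL1A under each name. Points are samples of shRNA-NC and shRNA-UBC9. IL1A and IL1B are the only genes of the row called higher, and IL36A and IL1F10 sit at 0 RPKM in both groups.

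The receptors through which the members act were mostly near 0 in T24. Of 9 receptor, decoy and binding protein genes, 3 were tested, 1 was called higher and 0 lower, with a median log2 fold change of 0.46. Over all tested genes 5.2% were called higher. IL1RAP, the co-receptor shared by the IL-1, IL-33 and IL-36 receptors, rose from 0.962, 1.19 and 1.01 RPKM to 4.54, 2.8 and 3.17 RPKM (log2 fold change 1.62, SE 0.184, limma adjusted p = 0.000516). IL1R1, the signalling receptor of IL-1α and IL-1β, was below the filter at 0.0993, 0.448 and 0.171 RPKM in shRNA-NC and 0.56, 0.421 and 0.415 RPKM in shRNA-UBC9, and these overlapped. IL1RL1, the IL-33 receptor, had 0, 0 and 2 reads against 52, 12 and 2 reads if its gene model is 5746 bases long. All these counts are even, so a shorter model with fewer reads would fit as well. SIGIRR, an inhibitory receptor (log2 fold change 0.46, limma adjusted p = 0.071), and IL18BP, the soluble decoy for IL-18 (log2 fold change -0.14, limma adjusted p = 0.57), were not called.

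Among 15 signal transducer genes, all tested, 1 was called higher and 0 lower, with a median log2 fold change of -0.00623. This count was near the share over all tested genes, of which 5.2% were called higher and 2.7% lower. IRAK2, a kinase of the receptor complex, rose from 9.22, 9.83 and 8.35 RPKM to 34.9, 34.3 and 30.02 RPKM (log2 fold change 1.85, SE 0.0997, limma adjusted p = 1.6e-05). IRAK3, an inhibitory relative, had a log2 fold change of 0.98 (limma adjusted p = 0.00785), just below the threshold. It was at 0.348, 0.43 and 0.346 RPKM in shRNA-NC and 1.009, 0.735 and 0.769 RPKM in shRNA-UBC9. IRAK3 thus passed the filter on low values only through the knockdown group, so it had to differ. IRAK1 and IKBKG, at 145.3 and 14.4 RPKM in controls, had log2 fold changes of -0.19 and -0.19, and MYD88 had -0.17 (limma adjusted p = 0.472).

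Genes that process and release the cytokines were measured for 17 of 18 listed symbols, 13 of them tested. Of these, 3 were called higher and 0 lower, with a median log2 fold change of 0.41, while 5.2% of all tested genes were called higher. CASP1, the protease that cuts pro-IL-1β and pro-IL-18, went from 1.16, 3.5 and 1.81 RPKM to 8.02, 10.9 and 4.77 RPKM (log2 fold change 1.88, SE 0.397, limma adjusted p = 0.00759). NLRP3, an inflammasome sensor, rose by 1.65 on the log2 scale (SE 0.202, limma adjusted p = 0.00069), and CASP4, a sensor of bacterial lipopolysaccharide, by 1.25 (SE 0.136, limma adjusted p = 0.000439). CAPNS1, the small subunit of calpain proteases, which cut pro-IL-1α, was the most abundant of the list and was not called (log2 fold change -0.30, limma adjusted p = 0.122). Of the other calpain genes listed, CAPN2 was lower in the knockdown but below the fold threshold (log2 fold change -0.83, SE 0.139, limma adjusted p = 0.00289). CAPN1 had a log2 fold change of 0.11 (limma adjusted p = 0.538). AIM2, a sensor of cytosolic DNA, was at 0 RPKM in each shRNA-NC sample and at 0.2485, 0.4662 and 0.1411 RPKM in shRNA-UBC9. It was not among the tested genes. A gene model of 6027 bases, the fitting length nearest the GENCODE one, gives 54, 99 and 24 reads in shRNA-UBC9. These counts share a common factor, so a shorter model with fewer reads fits the values equally well. The bound of at least 58.3-fold, against a floor of 3 reads over the control group, depends on that length. When every gene above 0 was tested, AIM2 was called (log2 fold change 1.86, limma adjusted p = 0.00918), a value that depends on the pseudocount.

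Genes known to be induced by IL-1 were high alongside the ligands. Of 20 listed, 19 were tested and 19 were called higher, with a median log2 fold change of 4.78. Over all tested genes 5.2% were called higher, and the median log2 fold change was 0.00482. The list of IL-1-induced genes was drawn up with results of these samples known, so its count is no independent evidence of direction. CCL20, a chemokine for dendritic cells and T cells, went from 0.2, 0.494 and 0.286 RPKM to 146.7, 91.2 and 46.9 RPKM (log2 fold change 7.71). The collagenase MMP1 had a log2 fold change of 7.43, the stromelysin MMP3 7.41 and the granulocyte growth factor CSF3 7.41, with limma adjusted p-values of at most 1.6e-05 for all 4. CCL20, MMP1 and MMP3 were below 0.5 RPKM in every control, where MMP3 was at 0, 0.0282 and 0.0289 RPKM. CCL20, MMP1 and MMP3 passed the filter on low values only through the knockdown group, so they had to differ and add nothing to the count. CCL2, the remaining gene, was at 0 in all 6 samples.

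**Figure D4:**
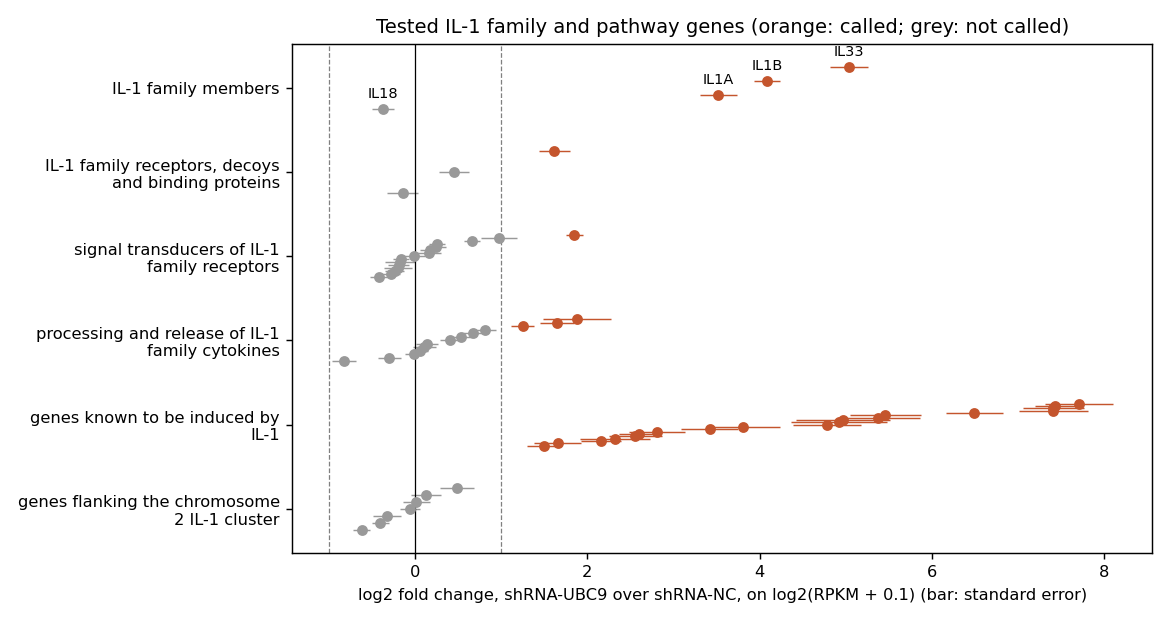
Log2 fold change of shRNA-UBC9 over shRNA-NC on the log2(RPKM + 0.1) scale (horizontal axis) for each tested gene of 6 lists (rows). Points are genes, bars are standard errors, dashed lines mark -1 and 1, and orange marks called genes. IL1A, IL1B and IL33 stand with the IL-1-induced genes, whereas 14 of 15 transducers and all 7 flanking genes are grey. The IL-1-induced list was drawn up with results of these samples known. IL33, CCL20, MMP1 and MMP3 passed the filter only through the knockdown group, so this placement is no independent evidence. Over all tested genes only 7.89% were called, so mostly grey rows are common.

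Genes with a profile most like IL1B and IL1A were sought by the root mean square difference of centred log2(RPKM + 0.1) over the 6 samples. For IL1B these were TFPI2 (0.201), TM4SF19 (0.222) and ACP7 (0.251), and for IL1A they were POU2F2 (0.12), G0S2 (0.177) and CTC-378H22.1 (0.223). G0S2, for example, went from 38.3, 37.9 and 26.2 RPKM to 372, 358 and 304 RPKM. With 6 samples in 2 groups, such likeness mostly reflects a similar group difference.

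White blood cells make much IL-1β, so their markers were set beside these levels. T24 is epithelial, and KRT7, KRT8, KRT18 and KRT19 summed to 937 to 1110 RPKM in shRNA-NC and 423 to 563 RPKM in shRNA-UBC9. KRT7 was called lower. KRT8, KRT18 and KRT19 were also lower, with log2 fold changes of -0.81, -0.93 and -0.99 (limma adjusted p = 0.0042, 0.000959 and 0.00698). They missed the call only on the fold threshold. Urothelial differentiation genes were mostly below the filter (4 of 6), and PPARG was called lower. The 12 leukocyte markers summed to 0.724 to 1.56 RPKM in controls and 0.792 to 1.9 RPKM in the knockdown. CD14, a monocyte co-receptor also found on other cells, was the highest and was present in all 6 libraries, at 0.657, 0.26 and 0.642 RPKM in shRNA-NC and 0.706, 0.692 and 0.752 RPKM in shRNA-UBC9. Every knockdown sample lay above every control, and CD14 was not called (log2 fold change 0.47, limma adjusted p = 0.25). LYZ, a myeloid lysozyme, was at 0, 0.409 and 0.536 RPKM against 0.786, 0.595 and 0 RPKM, and was not called (log2 fold change 0.31, limma adjusted p = 0.822). The other 10 markers were below the filter, 2 of them at 0 in all samples, with the macrophage genes CSF1R at most 0.0344 RPKM and CD163 at most 0.00488 RPKM. The part of such cells in the IL-1 family levels was not tested. The 6 fibroblast markers summed to at most 1.32 RPKM, and 4 of them were below the filter. PDGFRB was called lower (log2 fold change -1.48, limma adjusted p = 0.00325), but it passed the filter only through the controls, so it had to differ. COL1A1 was higher in the knockdown, below the fold threshold (log2 fold change 0.955, limma adjusted p = 0.0276). In the pair of libraries with 0 reads of the blood and muscle genes, IL1B was at 28.1 RPKM in shRNA-NC 1 and 402 RPKM in shRNA-UBC9 3. In these bulk samples more expressing cells and more RNA per cell cannot be told apart.

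**Figure D5:**
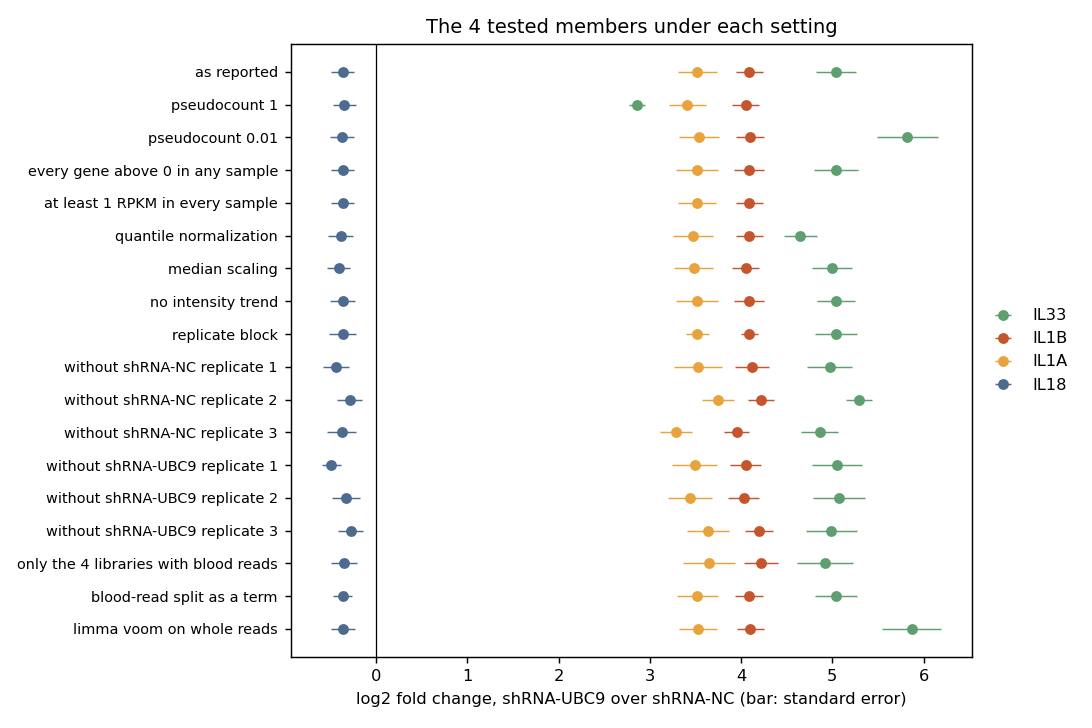
Log2 fold change of the 4 tested members (horizontal axis, bars are standard errors) in the fit as reported and under each alternative (rows). IL1A stays between 3.29 and 3.75 and IL1B between 3.95 and 4.22, IL33 moves from 2.86 to 5.87 with the scale used for low values, and IL18 stays between -0.49 and -0.28.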

How the data were processed

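RNA-seq of polyadenylated RNA from 3 shRNA-NC and 3 shRNA-UBC9 T24 samples was analysed from per-sample RPKM files. Per the study's methods, the authors trimmed Illumina HiSeq X reads, mapped them to GRCh38 (hg38 in the submitters' processing notes) using default settings of CLC Biomedical Genomics Workbench 4, and deposited RPKM per gene. The annotation release, strand setting and handling of reads with several matches are not given in the sources used here, so reads from overlapping or antisense genes could not be told apart.

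Genes with at least 0.5 RPKM in at least 3 samples were tested with limma 3.58.1 (R 4.3.3), with an intensity trend, on log2(RPKM + 0.1), which understates the change of low genes. Adjusted p-values are Benjamini-Hochberg values over all 12428 tested genes. On simulated normal values with the same spread for every gene, the fit recovered 99.5% of genes changed by 2 on the log2 scale. That change lies above the call threshold, and real genes differ in spread. The simulation therefore checks the fitting steps and not the recovery of low or variable genes. Low members and ratios were compared by exact two-sided permutation tests over samples. Since every RPKM value is a whole number of reads times a constant, read totals could be recovered, giving whole reads in all samples for 12421 tested genes (99.9%, tolerance 0.03 reads). Of the recovered lengths, 80.3% lay within 10% of the GENCODE exon length. A shorter length with fewer reads fits as well where the counts share a common factor. Where few values were above 0, the fitting length nearest the GENCODE one was taken, so those read counts depend on it. Intervals and floors cover counting error only. No pair of samples held identical values.

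Members and gene lists were chosen with earlier results of these data known. Named genes were the members, up to 4 genes per list (called genes with the largest change, then the highest levels) and the 3 genes most like IL1A and IL1B each. IL1RL1, IRAK3, AIM2, CAPN1, CAPN2, CCL2, CSF1R and CD163 lie outside that rule and were named after their values were seen, as were the 12 blood and muscle genes. Promoters came from RefSeq (IL1A, IL1B, IL33, IL36G, IL36RN and IL1RN matched) and 3′ UTRs from GENCODE release 44. Alternatives covered the pseudocount, filter, scaling, variance trend, replicate block, threshold and left-out samples. The test on recovered reads (limma voom) and the fits that account for the libraries with blood and muscle transcripts were added after seeing the data. The check of the targeted gene's level is not reported here.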

Additional observations from a re-analysis of the deposited data

How the results depend on the processing

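The calls of IL1B and IL1A held under every alternative run, and that of IL33 under each in which it was tested. IL33 could not be tested when at least 1 RPKM was required in every sample. With limma voom on the recovered reads, an alternative chosen after seeing the data, IL33 had a log2 fold change of 5.87. IL18 had an adjusted p between 0.0114 and 0.158 over its alternatives and was called in none. Accounting for the split by blood and muscle transcripts, also chosen after seeing the data, gave an adjusted p of 0.0307 for IL18.

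Leaving out single samples gave log2 fold changes of 3.95 to 4.22 for IL1B, 3.29 to 3.75 for IL1A, 4.86 to 5.29 for IL33 and -0.49 to -0.28 for IL18. Over these fits 926 to 1065 genes were called, against 981 with all samples, and the lists gave 1 receptor, 1 to 2 transducers (2 without shRNA-NC replicate 2, shRNA-UBC9 replicate 2 or shRNA-UBC9 replicate 3), 3 processing genes and 19 IL-1-induced genes. Differences of mean RPKM ranged from 0.0111 to 0.0416 for IL1RN, 0 to 0.0228 for IL36B, -0.00646 to 0.202 for IL36G and 0.0043 to 0.0463 for IL36RN.

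The number of called genes was 552 with a pseudocount of 1, 552 with at least 1 RPKM in every sample and 4576 with no minimum fold change. The stricter filter left 0 receptors, 2 processing genes and 11 IL-1-induced genes called, since fewer genes were tested, and testing every gene above 0 gave 4 processing genes, AIM2 being added. The transducers numbered 2 with a pseudocount of 0.01 and with voom. The voom fit called 1052 genes. Quantile normalization split 981 calls into 573 higher and 408 lower, against 646 and 335.

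Across genes, the deviations of samples with the same replicate number correlated at -0.367, 0.0728 and -0.17. Deviations from a mean of 3 samples are tied to each other, so these values cannot decide whether the numbers pair the samples. A replicate block lowered the standard error from 0.151 to 0.0958 for IL1B and from 0.215 to 0.124 for IL1A. It raised the standard error from 0.13 to 0.144 for IL18 and from 0.221 to 0.231 for IL33. With the replicate number as a block, 974 genes were called, and the log2 fold change was 4.09 for IL1B (adjusted p = 2.8e-05, limma) and -0.37 for IL18 (adjusted p = 0.106, limma), with no change in the number of calls among the members or the lists. IL36B, IL1RN and IL36RN had at most 11 reads in a group, which limits any comparison of them.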

Other observations

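Transcripts of other tissues were present at trace levels in 4 of the 6 libraries. S100A9, a neutrophil gene, was at 2.2 RPKM in shRNA-NC 2, 2.56 in shRNA-NC 3, 2.36 in shRNA-UBC9 1 and 2.75 in shRNA-UBC9 2, and at 0 in the other two libraries. HBB, the β-globin gene, ranged from 0.637 to 0.877 RPKM in the same 4 libraries, TRBC2, a T-cell receptor gene, from 1.1 to 1.39 RPKM, and CKM, the muscle creatine kinase, from 0.47 to 0.599 RPKM. Deviations from the group mean correlated at 0.526 between shRNA-NC 1 and shRNA-UBC9 3, the libraries at 0, across genes, which are not independent replicates.

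Using only the 4 libraries with these transcripts, 1011 genes were called, and IL1B and IL1A kept their calls. Neither the presence of these transcripts nor its absence followed the knockdown, since 2 of 3 libraries held them in each group. Their origin was not tested.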
